A study of Mus musculus with 6 samples.

Results

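Imprinted growth genes that lie at separate loci were followed through quadriceps of 10-day-old mouse pups: Plagl1, Zdbf2, Cdkn1c, Grb10, Mest, Nnat, Gnas, Impact and Airn. They are 9 of the 54532 genes in the count table and were matched by symbol to their Ensembl identifiers in GENCODE, and all 9 were among the 14715 genes abundant enough to be tested. The 9 were picked with results of this same contrast already known. Their group differences are therefore given as a description, with no p-value.

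The series asks what loss of Pcyt2, the enzyme of the CDP-ethanolamine route to phosphatidylethanolamine, does to gene expression in the early myotome. RNA was sequenced from 3 control pups (genotype Pcyt2 flox/flox) and 3 Myf5Cre-Pcyt2 pups, all at postnatal day 10 and on chow. Cre is driven from Myf5, a gene of muscle precursor cells, so recombination starts in those precursors and other cells of the muscle keep the floxed gene unless they descend from a Myf5-expressing cell. The control genotype names no Cre, so effects of Cre and of Pcyt2 loss cannot be told apart. The labels do not say whether pups came from separate litters, and the tests measure the spread between these 6 libraries. Levels are given as CPM, counts scaled to a common library total after TMM normalisation, and differences as log2 fold changes of Myf5Cre-Pcyt2 over control with the standard error (SE) of the edgeR fit.

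Library totals lay between 17775898 and 20446920 counts, with 20921 to 23122 genes detected. The 10 most abundant genes took 21.1% to 25.7% of the counts in control libraries and 16.8% to 19.6% in Myf5Cre-Pcyt2 libraries. Pcyt2 itself was at 16.9 ± 1.52 CPM (SD, n = 3) in control and 13.9 ± 1.23 CPM (SD, n = 3) in Myf5Cre-Pcyt2 muscle, a log2 difference of -0.28 (SE 0.11, edgeR adjusted p = 0.0944) that missed the threshold of 0.05, although the groups did not overlap. Xist and Ddx3y put both replicate 3 libraries on the male side and the other 4 libraries on the female side. Markers of the muscle fibre were abundant in every library, and the 7 lymphocyte and neutrophil markers were each under 1 CPM everywhere.

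An imprinted gene is read mainly from the chromosome inherited from the mother or mainly from the one inherited from the father, and the choice is held by DNA methylation at a control region. Many imprinted genes act on growth before and shortly after birth: genes read from the paternal copy tend to promote it and genes read from the maternal copy tend to restrain it. As a class they are high in fetal and newborn tissue and are turned down as growth slows. In skeletal muscle several of them mark precursors and growing fibres. The counts do not separate the parental copies, so every level below is the sum of both.

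The control region of an imprinted gene often lies at a promoter, and the zinc-finger protein ZFP57 protects its methylation by binding the letters TGCCGC once they are methylated. RefSeq promoter windows (GRCm38.p6, 250 bases before to 50 after a start) were used for 7 members with 14 windows: Plagl1, Zdbf2, Grb10, Mest, Nnat, Gnas and Airn. Cdkn1c had no window, and Impact was left out of the windows used, so the counts below do not cover it. The 250 bases before a start are printed for Plagl1 and Zdbf2, the members with the largest differences, and for Mest. Of the 3 Mest windows, 2 start 3 bases apart and hold the same 2 matches, of which the second is printed, and the other, chr6:30733256-30733555, holds 0. All 3 genes lie on the plus strand, sequences run 5′ to 3′, and capitals mark TGCCGC or its reverse complement GCGGCA.

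Plagl1, chr10:13090582-13090831: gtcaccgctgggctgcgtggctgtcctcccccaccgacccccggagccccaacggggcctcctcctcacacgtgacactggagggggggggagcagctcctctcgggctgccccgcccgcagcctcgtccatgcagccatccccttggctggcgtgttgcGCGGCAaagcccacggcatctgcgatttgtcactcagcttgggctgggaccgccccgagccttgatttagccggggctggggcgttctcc

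Zdbf2, upstream start, chr1:63200108-63200357: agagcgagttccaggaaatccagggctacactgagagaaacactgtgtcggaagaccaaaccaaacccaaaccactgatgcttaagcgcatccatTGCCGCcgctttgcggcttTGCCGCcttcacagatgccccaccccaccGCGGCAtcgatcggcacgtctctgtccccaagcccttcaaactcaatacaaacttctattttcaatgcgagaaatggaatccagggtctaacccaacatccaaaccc

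Zdbf2, start of the counted gene, chr1:63273019-63273268: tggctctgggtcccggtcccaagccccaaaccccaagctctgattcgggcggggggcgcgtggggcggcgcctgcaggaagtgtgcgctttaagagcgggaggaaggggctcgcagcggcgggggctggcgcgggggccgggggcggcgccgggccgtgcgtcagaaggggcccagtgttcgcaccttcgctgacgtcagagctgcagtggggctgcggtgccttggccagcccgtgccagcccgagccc

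Mest, chr6:30737803-30738052: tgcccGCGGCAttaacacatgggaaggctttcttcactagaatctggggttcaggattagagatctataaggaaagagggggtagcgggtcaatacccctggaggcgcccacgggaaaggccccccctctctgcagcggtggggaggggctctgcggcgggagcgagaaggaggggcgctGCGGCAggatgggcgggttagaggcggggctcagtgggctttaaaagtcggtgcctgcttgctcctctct

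The upstream Zdbf2 window holds 3 matches and lies 72.9 kb before the start of the gene model that was counted, within the body of Gpr1 on the other strand. It belongs to a long upstream transcript known from the early embryo. The Plagl1 and Mest windows lie inside their own gene models, with starts 30.3 kb and 14.5 kb after the first annotated base. The window at the counted start holds no match but is richer in CG, with 38 CG pairs in 300 bases against 15 upstream. Over both strands TGCCGC was found in 6 of the 14 member windows and in 5 of the 7 members with a window used (Plagl1, Zdbf2, Grb10, Mest and Nnat). It was found in 11.61% of 32851 windows of all genes, and in 25.1% of the 11378 windows with at least 15 CG pairs. Counted by gene, 13.1% of 27025 genes with a window held it. Of the other imprinted genes listed, 11 of 43 with a window held it. The letters GGGGCCCC, a palindrome that the PLAGL1 protein binds, were in 0 of the 14 member windows and in 1.08% of all windows. A match describes letters only, and the windows carry no methylation or binding data.

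Of the 9 members, 5 were past the threshold as higher in Myf5Cre-Pcyt2 muscle, 0 as lower and 4 were not called, where 9.02% of all 14715 tested genes were higher and 9.59% lower. The 5 were Plagl1, Zdbf2, Mest, Grb10 and Impact, and these were also the 5 members whose groups did not overlap, where 19.9% of all tested genes had higher, non-overlapping Myf5Cre-Pcyt2 values and 19.2% lower ones. The median log2 fold change of the 9 was 0.43, and that of all tested genes was 0.00. As the members were picked on this contrast, nothing is read from these shares. Without control replicate 2 Impact was no longer called, and with both male libraries left out the count fell to 3, without Grb10 and Impact. In muscle taken whole, fewer cells of a type and less RNA per cell cannot be told apart.

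**Figure D1:**
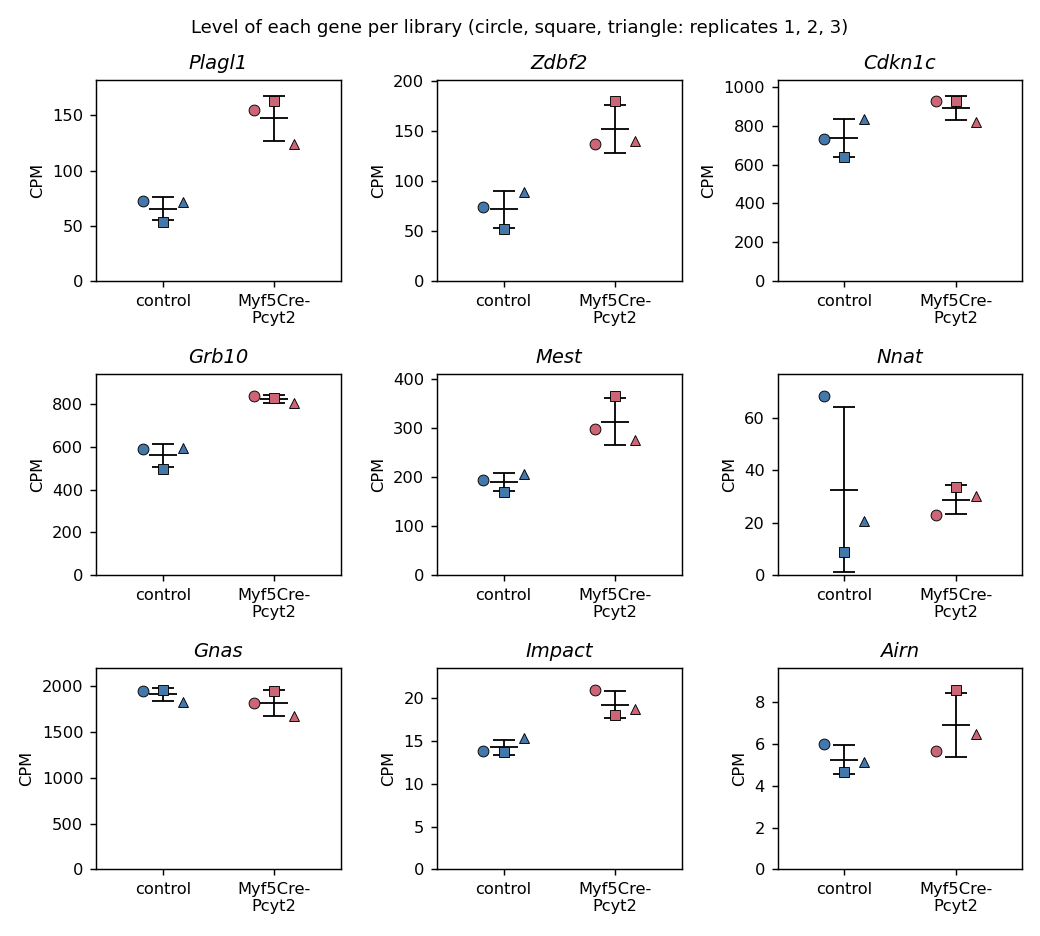
Level of each of the 9 genes in CPM (linear axis from 0) in the 3 control and 3 Myf5Cre-Pcyt2 libraries, with circle, square and triangle for replicates 1, 2 and 3 and bars for the mean ± SD. The groups are apart for Plagl1, Zdbf2, Grb10, Mest and Impact and overlap for Cdkn1c, Nnat, Gnas and Airn.

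Per kilobase of exon the members spanned a wide range of levels in control muscle. Cdkn1c was the highest at 361 ± 48.4 RPKM (CPM per kilobase of exon, SD, n = 3), followed by Gnas at 171 ± 6.61, Grb10 at 61.7 ± 6.0 and Mest at 48.0 ± 4.81 RPKM. Nnat stood at 17.8 ± 17.3, Plagl1 at 8.39 ± 1.38 and Zdbf2 at 5.68 ± 1.46 RPKM, and neighbours among these 3 overlapped between libraries. Impact at 2.78 ± 0.171 and Airn at 1.46 ± 0.188 RPKM closed the order, each apart from the gene above it. In Myf5Cre-Pcyt2 muscle Plagl1 at 18.8 ± 2.60 RPKM stood above Nnat at 15.7 ± 2.98, and Zdbf2 followed at 12.0 ± 1.90, with overlap between neighbours. Grb10 at 90.8 ± 2.03 and Mest at 79.3 ± 12.0 RPKM overlapped there. The order depends on the length used: per kilobase of the longest transcript, Gnas at 484 was above Cdkn1c at 387 RPKM in control muscle.

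Plagl1 (ENSMUSG00000019817, chr10:13060504-13131694, plus strand, GRCm38) encodes a zinc-finger transcription factor read from the paternal copy and known to control other imprinted genes. It was at 72.1, 53.1 and 71.6 CPM in control replicates 1, 2 and 3, and at 155, 163 and 124 CPM in Myf5Cre-Pcyt2 replicates 1, 2 and 3. The lowest Myf5Cre-Pcyt2 library was above the highest control library. The means were 65.6 ± 10.8 and 147 ± 20.3 CPM (SD, n = 3 each), a log2 fold change of 1.17 (SE 0.14) or 2.24-fold. This was the largest difference among the 9.

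Zdbf2 (ENSMUSG00000027520, chr1:63273265-63314576, plus strand) encodes a zinc-finger protein read from the paternal copy that supports growth after birth. It was at 74.5, 52.3 and 89.0 CPM in the control libraries and at 137, 180 and 140 CPM in the Myf5Cre-Pcyt2 libraries. No control library reached the lowest Myf5Cre-Pcyt2 library, and control replicate 2 was again the lowest. The means were 71.9 ± 18.5 and 152 ± 24.1 CPM (SD, n = 3 each), a log2 fold change of 1.08 (SE 0.18) or 2.12-fold. Plagl1 and Zdbf2 were past the threshold under each of the 14 alternative settings, between 1.04 and 1.37 for Plagl1 and between 0.90 and 1.32 for Zdbf2 on the log2 scale.

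The profiles of both genes over the 6 libraries were compared with 12358 tested non-member genes with a mean of at least 1 CPM. Pseudogenes and genes with Gm-number, Rik or clone-type names were left out of the comparison. The measure was the root mean square difference of log2 CPM centred on each gene's mean. The genes closest to Plagl1 were Dnm3os at 0.0643, a long RNA that carries the miR-199a and miR-214 hairpins, the growth factor gene Fgf5 at 0.127, and Zim1 at 0.130, an imprinted zinc-finger gene next to Peg3. Those closest to Zdbf2 were the homeobox gene Hdx at 0.0927, the kinase gene Nrk at 0.106 and Vcan at 0.109, which encodes the matrix proteoglycan versican. Plagl1 and Zdbf2 were 0.155 apart on this scale. Among pairs of members the smallest distance was 0.110, between Grb10 and Impact, and Nnat was at least 0.753 from every other member. These distances use the same 6 libraries as the contrast and are descriptions.

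Cdkn1c (ENSMUSG00000037664, chr7:143458339-143461050, minus strand) encodes p57, a maternally read inhibitor of cyclin-dependent kinases that holds myoblasts out of the cell cycle as they differentiate. It was at 733, 640 and 837 CPM in control and at 927, 927 and 821 CPM in Myf5Cre-Pcyt2 libraries. Control replicate 3 was above Myf5Cre-Pcyt2 replicate 3, so the groups overlapped. The means were 737 ± 98.7 and 892 ± 61.0 CPM (SD, n = 3 each), a log2 fold change of 0.28 (SE 0.12) that was not called. With libraries scaled by their totals alone, which moves the median of all tested genes by 0.21 on the log2 scale, it was 0.48 and was called.

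Among 20 tested genes of 22 listed for the G1 phase (cyclins, kinases, their inhibitors and the retinoblastoma family), 8 were higher, 1 was lower and 11 were not called, or 45% called beside 18.6% of all tested genes, with a median log2 fold change of 0.22. Cdkn1a, the related inhibitor p21, rose from 44.5 ± 6.43 to 72.2 ± 4.22 CPM (log2 0.70, SE 0.11, edgeR adjusted p = 0.00414). The cyclin D3 gene Ccnd3 rose by 0.48 (SE 0.10, adjusted p = 0.00955), and Rbl2, the p130 pocket protein of resting cells, fell by 0.56 (SE 0.11, adjusted p = 0.00923). The genes of this list that rose thus include an inhibitor of the cycle and genes that drive it, such as Cdk2, Ccna2, Ccne1, Cdk6 and E2f1. The groups overlapped for Ccne1. Rbl1, of the same family as Rbl2, rose by 0.58 (SE 0.16, edgeR adjusted p = 0.0297). Leaving out a single library gave 4 higher genes for control replicate 1, 2 for control replicate 2, 2 for Myf5Cre-Pcyt2 replicate 2 and 3 for Myf5Cre-Pcyt2 replicate 3, and Rbl2 lost its call without Myf5Cre-Pcyt2 replicate 2 (adjusted p = 0.0507).

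Grb10 (ENSMUSG00000020176, chr11:11930508-12038683, minus strand) encodes an adaptor that binds the insulin and IGF1 receptors and dampens their signal, is read from the maternal copy outside the brain and limits muscle mass. It was at 591, 498 and 595 CPM in control and at 841, 829 and 805 CPM in Myf5Cre-Pcyt2 libraries. The groups were apart, and the 3 Myf5Cre-Pcyt2 libraries differed by only 1.04-fold between highest and lowest. The means were 561 ± 54.6 and 825 ± 18.4 CPM (SD, n = 3 each), a log2 fold change of 0.56 (SE 0.11) or 1.47-fold. With both male libraries left out the difference was 0.62 and was no longer called.

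Among 30 tested genes of 31 listed for signalling from the insulin and IGF1 receptors, 5 were higher, 1 was lower and 24 were not called, which is 20% called beside 18.6% of all tested genes, with a median of 0.12. Both receptors rose: Igf1r from 47.4 ± 1.46 to 72.6 ± 7.61 CPM (log2 0.61, SE 0.09, edgeR adjusted p = 0.00378) and Insr by 0.40 (SE 0.09, adjusted p = 0.0119). Grb14, a close relative of Grb10, fell by 0.88 (SE 0.09, adjusted p = 0.00118), from 22.6 ± 0.459 to 12.3 ± 0.650 CPM, and so stood on the other side of 0 from Grb10. The remaining called genes were Foxo3, Akt1 and Pik3ca, all higher. The higher count was 3 when control replicate 2 was left out, 2 for Myf5Cre-Pcyt2 replicate 2 and 1 for Myf5Cre-Pcyt2 replicate 3, and Insr was not called without either of the latter 2 (adjusted p = 0.0545 and 0.0526).

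Mest (ENSMUSG00000051855, chr6:30723547-30748465, plus strand), read from the paternal copy, encodes a membrane protein with the fold of a hydrolase that is abundant in mesodermal tissue of the embryo. It was at 193, 169 and 206 CPM in control and at 297, 366 and 275 CPM in Myf5Cre-Pcyt2 libraries. The groups did not overlap, and Myf5Cre-Pcyt2 replicate 2 was the highest. The means were 190 ± 19 and 313 ± 47.4 CPM (SD, n = 3 each), a log2 fold change of 0.72 (SE 0.12) or 1.65-fold. It was past the threshold under each of the 14 alternatives, between 0.59 and 0.93. Its exons share 912 bases, or 23.1% of them, with the oppositely oriented Copg2, which encodes a subunit of the coatomer coat and stood at a log2 difference of 0.16 (SE 0.09, edgeR adjusted p = 0.237).

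Nnat (ENSMUSG00000067786, chr2:157560078-157562522, plus strand) encodes neuronatin, a small membrane proteolipid of the endoplasmic reticulum known from nerve and fat, read from the paternal copy. It was at 68.5, 8.88 and 20.6 CPM in control and at 22.8, 33.4 and 30.1 CPM in Myf5Cre-Pcyt2 libraries. Control replicate 1 was above and control replicate 2 below every other library, a 7.72-fold range within the controls. The means were 32.6 ± 31.6 and 28.8 ± 5.44 CPM (SD, n = 3 each), a log2 fold change of -0.19 (SE 0.52) that was not called. Without control replicate 1 Nnat was at 0.97 and was called as higher, and its value was above 0 in 3 of the 14 alternatives and below 0 in 11.

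Adipocyte genes had a similar order in the controls. Plin1, which coats fat droplets, was at 102, 7.95 and 28.8 CPM in control and at 24.6, 31.1 and 37.5 CPM in Myf5Cre-Pcyt2 libraries. The hormone gene Adipoq was at 50.2, 5.51 and 17.9 CPM in control and at 15.9, 18.2 and 20.8 CPM in Myf5Cre-Pcyt2 libraries. These 2 genes were chosen after their values were seen. The 9 adipocyte markers together summed to 911, 321 and 565 CPM in control replicates 1, 2 and 3 and to between 445 and 510 CPM in Myf5Cre-Pcyt2 libraries, none was at 0 in every library and 0 of 9 were called. Their part in the Nnat values was not tested. Blcap, whose gene body encloses Nnat on the other strand with 0 shared exon bases, stood at a log2 difference of -0.08 (SE 0.17, edgeR adjusted p = 0.776).

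**Figure D2:**
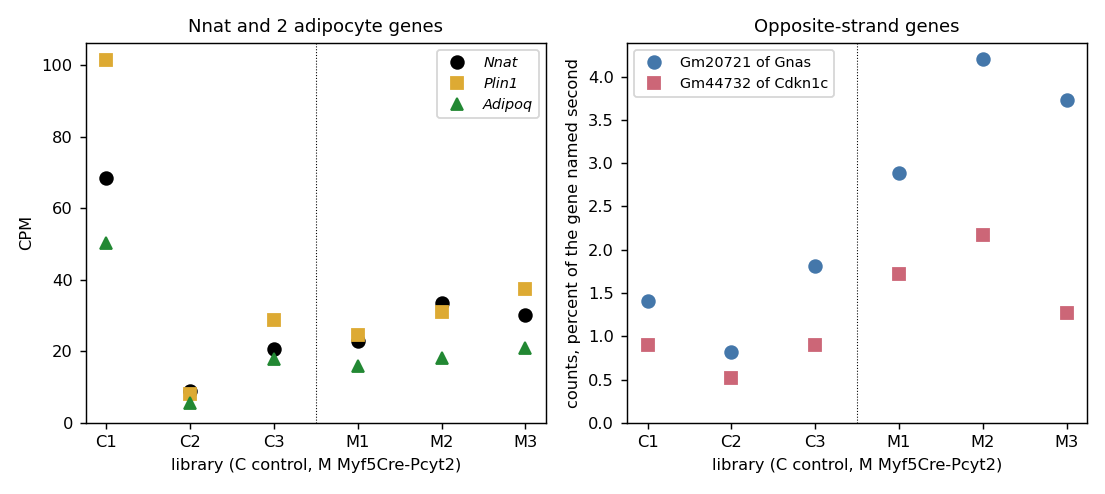
Left, CPM of Nnat and of the adipocyte genes Plin1 and Adipoq in each library (C control, M Myf5Cre-Pcyt2, replicates 1 to 3): all 3 are highest in control replicate 1 and lowest in control replicate 2. Right, counts of Gm20721 as a percent of Gnas counts and of Gm44732 as a percent of Cdkn1c counts: both shares are higher in each Myf5Cre-Pcyt2 library than in any control library.

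Gnas (ENSMUSG00000027523, chr2:174284320-174346744, plus strand) is a complex locus whose main product is the alpha subunit of the stimulatory G protein, which couples hormone receptors to adenylyl cyclase, and whose alternative first exons give products of one parental copy. It was at 1943, 1960 and 1824 CPM in control and at 1818, 1952 and 1670 CPM in Myf5Cre-Pcyt2 libraries. The groups overlapped, and Myf5Cre-Pcyt2 replicates 1 and 3 were below every control library. The means were 1909 ± 74.0 and 1813 ± 141 CPM (SD, n = 3 each), a log2 fold change of -0.07 (SE 0.12) that was not called and that became 0.14 when libraries were scaled by their totals alone. A gene count sums all first exons, so a change in a minor imprinted product would be diluted by the main one.

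Of 31 tested genes of 32 listed for receptors, cyclases and targets of the cyclic AMP pathway, 2 were higher, 4 lower and 25 not called, or 19.4% called beside 18.6% of all genes, with a median of 0.11. The phosphodiesterase gene Pde4a fell by 0.85 (SE 0.12, edgeR adjusted p = 0.0029), from 64.8 ± 9.58 to 35.8 ± 3.81 CPM. The cyclase gene Adcy7 rose by 0.52 (SE 0.12, adjusted p = 0.0146), a call lost without control replicate 2 (0.0564), Myf5Cre-Pcyt2 replicate 2 (0.0661) or Myf5Cre-Pcyt2 replicate 3 (0.0632). The higher count was 0 without control replicate 2 and 1 without control replicate 3, Myf5Cre-Pcyt2 replicate 2 or Myf5Cre-Pcyt2 replicate 3. The lower count was 2 without either of the last 2. Under library totals alone the split turned to 10 higher and 1 lower.

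Impact (ENSMUSG00000024423, chr18:12955852-12992950, plus strand) encodes a paternally read inhibitor of the kinase GCN2, which slows translation when amino acids run short. It was at 13.9, 13.7 and 15.3 CPM in control and at 21, 18 and 18.7 CPM in Myf5Cre-Pcyt2 libraries. The groups were apart, though on counts of only 236 to 264 in control and 393 to 413 in Myf5Cre-Pcyt2 libraries. The means were 14.3 ± 0.878 and 19.2 ± 1.54 CPM (SD, n = 3 each), a log2 fold change of 0.43 (SE 0.10) or 1.35-fold. Without control replicate 2 the difference was 0.40 and was not called, and with both male libraries left out it was 0.50 and was not called.

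Of 17 tested genes of 18 names listed for the eIF2 kinases and the targets of GCN2, 1 was higher, 0 were lower and 16 were not called, or 5.9% called beside 18.6% of all tested genes, with a median of 0.01. The called gene was Ppp1r15a, which helps to reverse the GCN2 signal, at a log2 fold change of 0.35 (SE 0.09, edgeR adjusted p = 0.0264). It was called in 6 of the 14 alternatives only, and not without control replicate 2, control replicate 3 or any single Myf5Cre-Pcyt2 library (adjusted p between 0.0527 and 0.0946). The count of higher genes was 2 without control replicate 1, and 0 without control replicate 2, control replicate 3, Myf5Cre-Pcyt2 replicate 2 or Myf5Cre-Pcyt2 replicate 3.

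Airn (ENSMUSG00000078247, chr17:12741311-12860136, plus strand) is a long non-coding RNA read from the paternal copy across the start of Igf2r, which it silences on that copy. It was at 5.98, 4.64 and 5.16 CPM in control and at 5.66, 8.60 and 6.47 CPM in Myf5Cre-Pcyt2 libraries. Control replicate 1 was above Myf5Cre-Pcyt2 replicate 1, so the groups overlapped, on counts of 80 to 197. The means were 5.26 ± 0.676 and 6.91 ± 1.52 CPM (SD, n = 3 each), a log2 fold change of 0.40 (SE 0.19) that was called under 0 of the 14 alternatives. Igf2r, which clears IGF2 from the cell surface, shares 0 exon bases with Airn. It rose from 202, 198 and 195 CPM in control to 274, 307 and 266 CPM in Myf5Cre-Pcyt2 libraries (log2 0.51, SE 0.09, edgeR adjusted p = 0.00603).

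**Figure D3:**
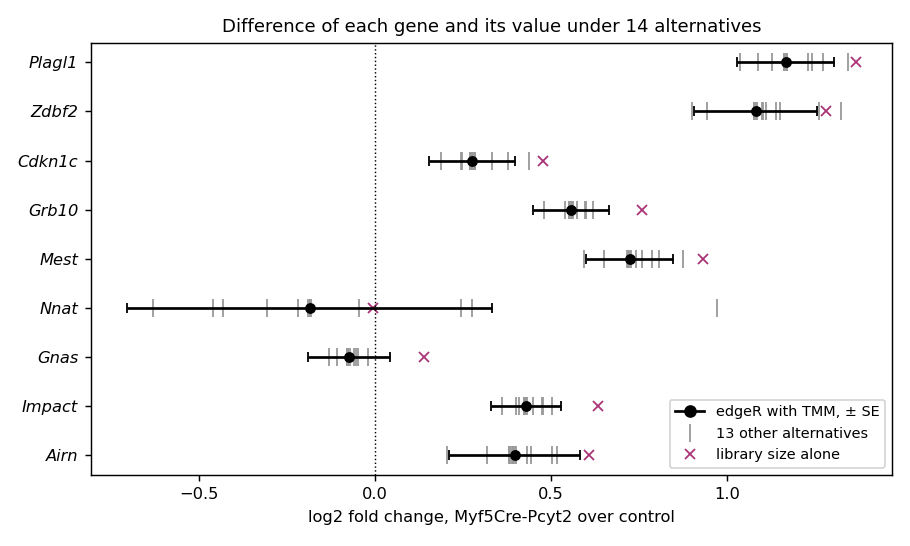
Log2 fold change of each gene, Myf5Cre-Pcyt2 over control, as points with SE bars, with grey ticks for the alternatives and a cross for scaling by library totals alone. Plagl1 and Zdbf2 lie farthest to the right, and Nnat has the widest spread, from -0.63 to 0.97.

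Some libraries ranked alike across members. Control replicate 2 was the lowest control library for 8 of the 9 genes, all but Gnas. Myf5Cre-Pcyt2 replicate 2 was the highest of its group for 6 of the 9. Control replicate 2 also had the highest summed level of the 10 fibre markers, 273760 CPM, and Myf5Cre-Pcyt2 replicate 2 the lowest, 123790 CPM. Control replicates 1 and 3, at 209030 and 196320 CPM, were the highest of their group for 3 and 5 members. Myf5Cre-Pcyt2 replicate 1, at 163110 CPM, was the lowest of its group for only 3 members and the highest for 3. Myf5Cre-Pcyt2 replicate 3, at 142400 CPM, was the lowest for 5. The same ranks over all tested genes were not counted. The part of fibre content in the member values was not tested.

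Several marker lists moved with the groups. Of 10 muscle fibre markers 6 were lower and 0 higher, and their sum was 196320 to 273760 CPM in control and 123790 to 163110 CPM in Myf5Cre-Pcyt2 libraries. Of 7 satellite cell and myoblast markers 5 were higher and 0 lower, with sums of 342 to 360 and 437 to 459 CPM. Of 7 Schwann cell and nerve markers 4 were higher, with sums of 414 to 509 and 617 to 838 CPM. For the 7 fibroblast markers 1 was higher, with sums of 8532 to 11061 and 11673 to 13290 CPM, and of 7 pericyte and smooth muscle markers 1 was higher and 1 lower, with sums of 1653 to 1918 and 1303 to 1475 CPM. The sums overlapped between groups for macrophage (0 of 7 called), endothelial (1 of 7 lower), tendon (2 of 6 higher), red cell (1 of 6 higher), and cartilage and bone markers (1 of 6 higher). No marker in these lists was at 0 in every library. Their part in the differences of the members was not tested.

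For each member, the tested genes whose lowest coordinates came next below and next above its own were taken as neighbours, 18 genes in all. By this rule a neighbour can overlap its member. Gm44732, Gm20721 and Gm16574 lie inside Cdkn1c, Gnas and Airn, so no gene beyond the upper end of these members was taken. Blcap encloses Nnat, and Copg2, Nespas and Igf2r overlap Mest, Gnas and Airn. Of these 7 were higher, 0 lower and 11 not called, or 38.9% called beside 18.6% of all tested genes, with a median of 0.20. Around Plagl1 neither Sf3b5 (log2 -0.32, SE 0.11, edgeR adjusted p = 0.0734) nor Ltv1 (-0.09, SE 0.10, adjusted p = 0.566) was called. Next to Zdbf2, Adam23, a gene for a cell adhesion protein that starts 131.3 kb after it, rose by 0.72 (SE 0.15, adjusted p = 0.0111), from 13.3 ± 2.54 to 21.9 ± 3.28 CPM. Its call was lost without Myf5Cre-Pcyt2 replicate 2 (adjusted p = 0.0562). Neither neighbour of Grb10, Ddc or Cobl, and neither neighbour of Impact, Osbpl1a or Zfp521, was called.

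Kcnq1ot1 is the long RNA of the domain that holds Cdkn1c, is read from the paternal copy and silences genes around it. It lies 161.8 kb from Cdkn1c and rose by 0.78 (SE 0.23, edgeR adjusted p = 0.0415), from 8.71 ± 1.88 to 14.9 ± 4.93 CPM. Its groups overlapped, and it was called in 7 of the 14 alternatives, with adjusted p between 0.0851 and 0.181 without control replicate 2, control replicate 3, Myf5Cre-Pcyt2 replicate 2 or Myf5Cre-Pcyt2 replicate 3. Cep41, a gene for a protein of centrosome and cilium 29.8 kb before Mest, rose by 0.56 (SE 0.17, adjusted p = 0.0415) on levels of 3.55 ± 0.536 and 5.26 ± 0.0856 CPM and was called in 6 of the 14. It was not called without control replicate 1, control replicate 2 or any single Myf5Cre-Pcyt2 library (adjusted p between 0.0615 and 0.133).

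Besides Igf2r, described with Airn, the other 3 called neighbours lie opposite member exons. Nespas, the antisense RNA of the Gnas locus, had 12, 6 and 12 counts in the control libraries, against 35, 63 and 27 in the Myf5Cre-Pcyt2 libraries (log2 1.80, SE 0.38, edgeR adjusted p = 0.0111). Gm20721, with 99.0% of its exon bases inside Gnas exons on the other strand, had 517, 278 and 572 counts in the control libraries, against 983, 1881 and 1350 in Myf5Cre-Pcyt2 libraries (log2 1.36, SE 0.23, adjusted p = 0.00503). Gm44732, with 98.4% of its exon bases inside Cdkn1c exons, went from 5.82 ± 2.22 to 15.5 ± 4.86 CPM (log2 1.41, SE 0.29, adjusted p = 0.00976). Without Myf5Cre-Pcyt2 replicate 2 the calls of Nespas (adjusted p = 0.0563) and Gm44732 (0.0525) were lost, and without that library the count of higher neighbours was 2.

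No source used here gives the strand setting of the counting, so reads of a gene and of its antisense partner may not be separated. Relative to Gnas, Gm20721 had 1.41%, 0.823% and 1.82% of the counts in control libraries and 2.89%, 4.21% and 3.73% in Myf5Cre-Pcyt2 libraries. Relative to Cdkn1c, Gm44732 had 0.903%, 0.517% and 0.899% of the counts in control libraries and 1.72%, 2.17% and 1.27% in Myf5Cre-Pcyt2 libraries. Both shares were higher in every Myf5Cre-Pcyt2 library. A wider set, defined after these values were seen, took every tested gene with at least 90% of its exon bases inside exons of a more abundant gene on the other strand.

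Of these 35 genes 15 were higher, 0 lower and 20 not called, or 42.9% higher beside 9.02% of all tested genes. Their median log2 fold change was 1.07, and that of the genes opposite them was 0.07. Summed over the 35 genes, control libraries had 4467, 3486 and 4924 counts, against 8582, 13738 and 10107 in Myf5Cre-Pcyt2 libraries. The higher count was 9 without control replicate 2 and 7 without Myf5Cre-Pcyt2 replicate 2. Of the 35 genes 29 had a log2 fold change above 0, and the part of this shift in the values of Gm20721, Gm44732 and Nespas was not tested.

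**Figure D4:**
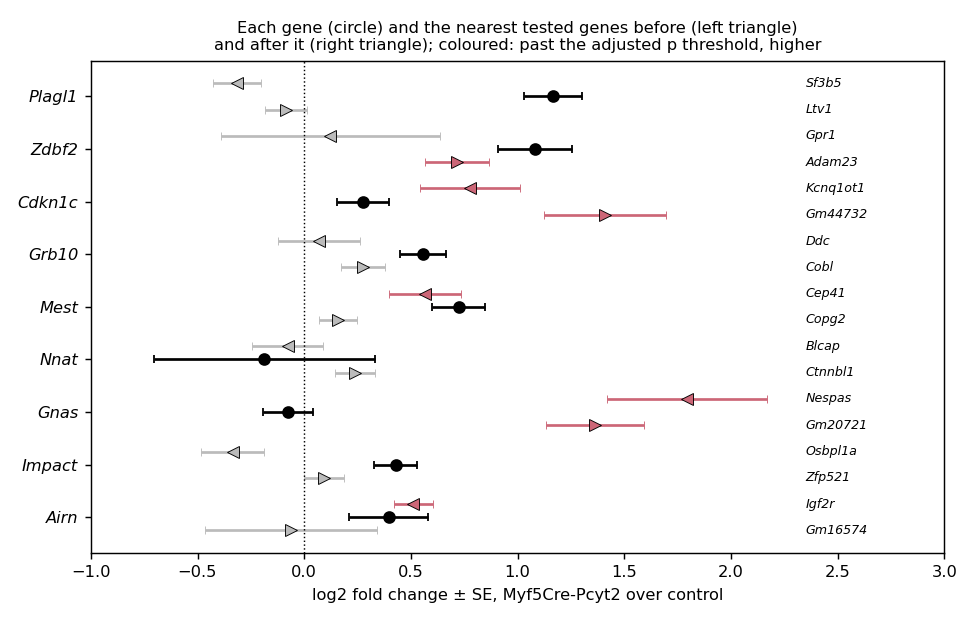
Log2 fold change with SE bars for each of the 9 genes (circles) and for its neighbours, named at the right. Neighbours are the tested genes whose lowest coordinates come next below (left triangle) and next above (right triangle) that of the gene, and some overlap it. Red marks the 7 neighbours past the threshold, all higher: Adam23, Kcnq1ot1, Gm44732, Cep41, Nespas, Gm20721 and Igf2r.

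Among 49 tested genes of 58 other imprinted genes listed, 19 were higher, 1 lower and 29 not called, or 40.8% called beside 18.6% of all tested genes, with a median log2 fold change of 0.40 beside 0.00 for all tested genes. Zim1 rose from 107 ± 19.5 to 265 ± 12.0 CPM (log2 1.31, SE 0.13, edgeR adjusted p = 0.00111). Dlk1, a membrane ligand of precursor cells, rose by 1.93 (SE 0.22, adjusted p = 0.00142), and Ndn, which encodes necdin, by 0.85 (SE 0.12, adjusted p = 0.00279). The gene that fell was Snrpn, at -0.63. The rise thus took in genes read from the paternal copy, such as Peg3, Usp29 and Magel2, and genes read from the maternal copy, such as Meg3, Rian and Igf2r. Nespas, Igf2r and Kcnq1ot1 are called in this list and among the neighbours as well. The higher count was 12 without Myf5Cre-Pcyt2 replicate 2, and the lower count was 0 without control replicate 2 or Myf5Cre-Pcyt2 replicate 2. The list was drawn up with earlier results of these samples known and is no independent evidence of direction.

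Of 16 tested genes of 17 listed for keeping imprints and DNA methylation, 4 were higher, 0 lower and 12 not called, or 25% called beside 18.6%, with a median of 0.22. Dnmt1, the enzyme that copies methylation at replication, rose by 0.44 (SE 0.10, edgeR adjusted p = 0.0129), and Uhrf1, which recruits it, by 0.80 (SE 0.20, adjusted p = 0.0199). Tet2, which oxidises methylated cytosine, rose by 0.56 (SE 0.13, adjusted p = 0.0158), so the list holds rises of enzymes of opposite action. The fourth was Zfp445, at 0.27. With 1 library left out the count was 0 for control replicate 2, 2 for control replicate 3 and 0 for Myf5Cre-Pcyt2 replicate 2, and Dnmt1, Tet2 and Uhrf1 then had adjusted p between 0.0504 and 0.0957 where they were lost.

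Of 10 tested genes of 13 listed as growth genes of fetal tissue, 6 were higher, 0 lower and 4 not called, or 60% called beside 18.6% of all tested genes, with a median of 0.72. Besides Dlk1 they included Peg3, at 1.04 (SE 0.15, edgeR adjusted p = 0.00345), and the transcription factor gene Sox11, at 0.75 (SE 0.14, adjusted p = 0.00787). The others were Igf2, Igf2bp2 and Igf2bp3. The count was 4 without control replicate 2 and 3 without Myf5Cre-Pcyt2 replicate 2. Dlk1, Peg3 and Igf2 are also in the imprinted list, so the 2 lists are not separate observations.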

How the data were processed

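The authors deposited raw counts for each Ensembl gene. The submitters' processing notes name GRCm38/mm10 as the genome, and as tools Subread 1.6.2 with its featureCounts, Bowtie2 2.3.4.1, and Trim Galore 0.5.0. For strand setting, annotation release and multi-mapping reads, the choice was not given in the sources used here. GENCODE M21 gave positions to 54495 of 54532 genes, and RefSeq the promoter windows. Counts in all 6 libraries were fitted with edgeR 4.0.16 in R 4.3.3 (filterByExpr, TMM factors, quasi-likelihood test, two-sided, Benjamini-Hochberg adjustment over 14715 genes, threshold 0.05). A called gene is past that threshold. RPKM used the union of exons. Tables and figures were made in Python 3.11.15 (pandas 2.3.3, matplotlib 3.10.9).

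The 14 alternatives were DESeq2 size factors, library totals alone, the DESeq2 1.42.0 test, limma-voom (limma 3.58.1), no count filter, a filter of 1 CPM in 3 libraries, the replicate number as a block, each of the 6 libraries left out, and both male libraries left out. The members, lists and tests were chosen with earlier results of these data known. Named genes are the 9 members, Pcyt2, Myf5 (log2 0.13, SE 0.18, adjusted p = 0.633), Igf2r, Blcap, called neighbours, the 3 genes closest to Plagl1 and to Zdbf2, and in each list the 3 called genes of at least 1 CPM with the smallest p. A gene named by this rule is not reported here. Genes named beyond these were chosen after their values were seen. No pair of libraries agreed within sampling noise.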

Additional observations from a re-analysis of the deposited data

How the results depend on the processing

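Precision rests on 3 libraries a group, on a biological coefficient of variation of 11.6%, and for Airn and Nespas on low counts. Scaling by library totals alone gave 3225 higher and 499 lower genes in place of 1328 and 1411. Under it 11 neighbours, 15 insulin, 10 cyclic AMP, 4 eIF2 and 10 imprint maintenance genes were higher, and 1 cyclic AMP gene and 0 other imprinted genes were lower. With both male libraries left out, 434 genes were higher and 435 lower, and the higher counts were 3 members, 4 neighbours, 1 insulin, 5 G1, 0 cyclic AMP, 0 eIF2 and 0 imprint maintenance genes. The lower counts there were 2 for cyclic AMP, 1 for eIF2 and 0 for other imprinted genes. The DESeq2 test gave 5 higher cyclic AMP and 0 higher eIF2 genes, and no count filter gave 1 lower neighbour and 2 higher eIF2 genes.

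Leaving out each library in turn gave 422 to 1337 higher and 424 to 1448 lower genes, the fewest without Myf5Cre-Pcyt2 replicate 2. Higher counts then ranged from 2 to 8 for neighbours, 12 to 21 for other imprinted, 1 to 5 for insulin, 2 to 8 for G1, 0 to 2 for cyclic AMP, 0 to 2 for eIF2, 0 to 5 for imprint maintenance and 3 to 6 for fetal growth genes. Lower counts ranged from 0 to 1 for other imprinted and for G1 genes and from 2 to 4 for cyclic AMP genes. Nnat ranged from -0.63 without control replicate 2 to 0.97 without control replicate 1, against -0.19 with all libraries. The eIF2 median of 0.01 turned to -0.0046 with limma-voom, and with 1 library left out it ranged from -0.067 (Myf5Cre-Pcyt2 replicate 2) to 0.041 (control replicate 1), and was below 0 also for control replicate 2 (-0.043) and Myf5Cre-Pcyt2 replicate 1 (-0.0073). Causes of these shifts were not tested, other than that fewer samples enter the fits with libraries left out.

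Replicate numbers gave no sign of pairing across genes: deviations from the group means correlated at -0.11, -0.17 and 0.02 for numbers 1, 2 and 3. Both replicate 3 libraries were on the male side, so a replicate block also takes in sex. With the replicate block, 865 genes were higher and 866 lower, 3 insulin, 4 G1 and 0 eIF2 genes were higher, and the eIF2 median was -0.012.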
